A study of Capra hircus with 10 samples.

Results

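The 10 genes NR5A1, NR5A2, NR0B1, NR4A1, NR4A2, NR4A3, NR2F1, RORA, NR1D1 and NR1D2 encode nuclear receptors of the NR5A, NR4A and related subfamilies, most of them named orphan receptors because no hormone was known for them when they were found. They were selected by symbol among the protein coding transcripts, and all 10 of the 10 symbols were present, out of 20587 gene symbols. RNA came from whole ovaries of the Anhui white goat, 5 of the luteal phase and 5 of the follicular phase, with 1 library per ovary. The ovaries were obtained from a slaughterhouse, and treatments, genetic changes and ages are not given in the sources used here. Nothing states that the ovaries of a phase came from separate goats, so the p-values measure the spread between these ovaries.

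A nuclear receptor is a transcription factor with a DNA-binding domain made of zinc fingers and, in most members, a pocket that can bind a small lipid. NR5A1 (steroidogenic factor 1) and NR5A2 (liver receptor homolog 1) bind the same extended half-site as single molecules and are known for switching on genes of steroid synthesis in the gonads, while NR0B1 (DAX1), which lacks the usual DNA-binding domain, represses NR5A1. The NR4A receptors are induced within minutes to hours by many stimuli, gonadotropins among them. NR2F1 (COUP-TFI) often acts as a repressor and can compete with NR5A receptors for their sites. RORA activates, and NR1D1 and NR1D2 (REV-ERB alpha and beta) repress, genes of the circadian clock through a shared element.

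Levels are given as FPKM, a count of sequenced fragments scaled by transcript length and by library size, as deposited by the authors and summed over the transcripts of a gene. FPKM is scaled by length, so levels of different genes can be set side by side. The reads behind each value are not given per ovary, and the spread between ovaries is the only measure of error. Differences are luteal minus follicular, on log2(FPKM + 0.1). They were tested two-sided by limma, and p-values were adjusted after Benjamini and Hochberg for the 15359 genes that reached an FPKM of 0.1 in at least 5 ovaries. Each of the 10 receptor genes passed this filter. A gene with an adjusted p below 0.05 is called higher or lower, and fold changes on this scale understate the change of low genes. Follicular phase replicates 2 and 5 stood apart from the other follicular phase ovaries for the NR4A genes, and the NR4A gene values are given with and without them.

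Of the 10 receptor genes, 1 was called higher in the luteal phase (NR5A2) and 2 were called lower (NR2F1 and NR1D2). Over all genes tested, 15.9% were called higher and 27.8% lower in the luteal phase, so the number of receptor genes called was near the background in each direction. The calls over all genes were 2439 higher and 4272 lower, and they were 2884 and 2610 after FPKM were rescaled to the same total in every ovary (the TPM scale). The median log2 fold change was -0.15 over the receptor genes and -0.14 over all genes tested. Luteal and follicular phase values did not overlap in 2 of the 10 receptor genes, NR5A2 and NR2F1, against 28.4% of all genes tested.

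**Figure D1:**
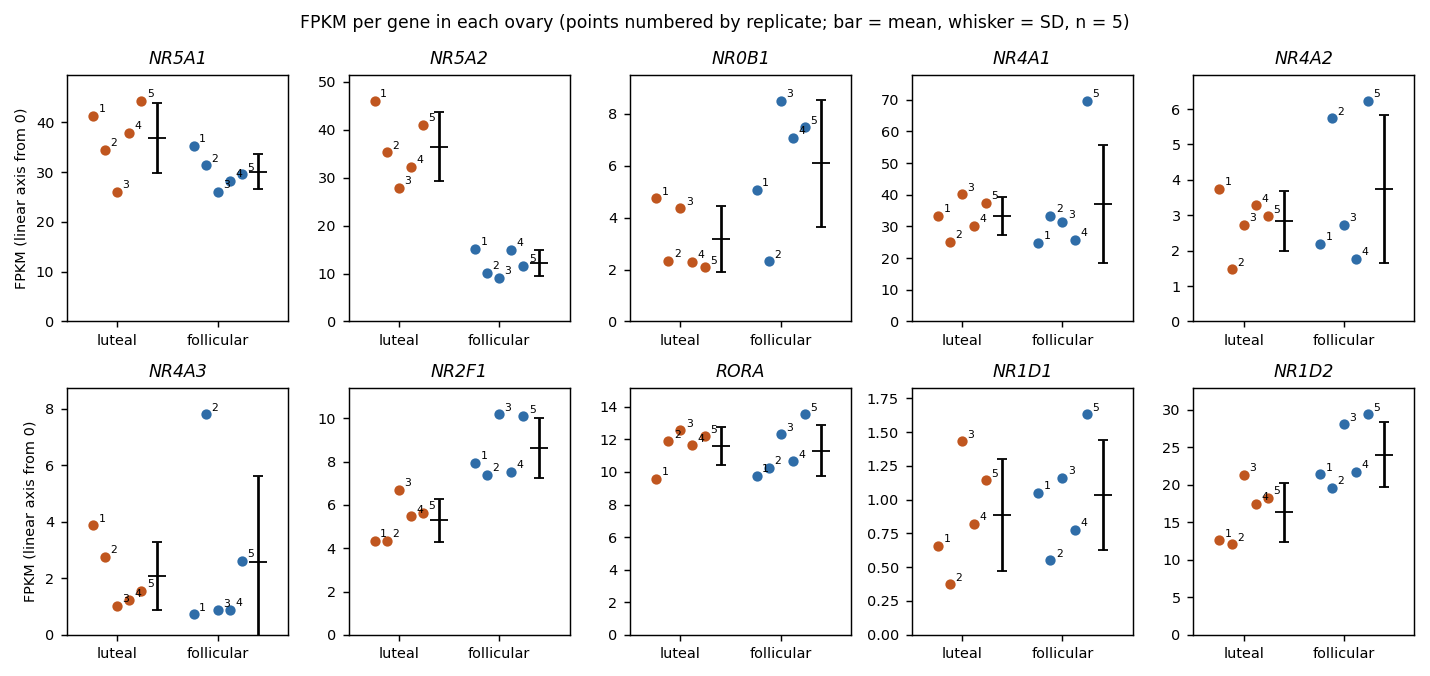
FPKM of each receptor gene (vertical axes, linear, from 0, with a scale of their own per gene) in the 5 luteal phase and 5 follicular phase ovaries, numbered by replicate, with mean and SD; the lower whisker of NR4A3 in the follicular phase is cut at 0. NR5A2 and NR2F1 have no overlap between the phases, and follicular phase replicates 5 and 2 stand above the other follicular phase ovaries for NR4A1 and NR4A3.

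In the luteal phase NR5A1 was the most abundant receptor gene with an FPKM of 36.8 ± 7.04, followed by NR5A2 with 36.5 ± 7.16 and NR4A1 with 33.3 ± 5.93 (SD, n = 5 each). The ranges of these 3 genes overlapped one another, and each of their ovaries lay above every ovary of NR1D2, the next gene. In the follicular phase the order was NR4A1, NR5A1, NR1D2 and then NR5A2, with NR5A2 below every ovary of NR1D2. RORA, NR2F1, NR0B1, NR4A2, NR4A3 and NR1D1 followed in this order in each phase. Neighbours among the last 5 of these overlapped in both phases. NR1D1 was the lowest, with an FPKM of 0.886 ± 0.413 in luteal and 1.04 ± 0.410 in follicular phase ovaries. Averaged over the 10 ovaries, NR4A1 lay above 87.5% of all genes tested, NR5A1 above 86.8% and NR1D1 above 17.7%.

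NR5A2 had an FPKM of 46.0, 35.3, 27.9, 32.2 and 41.1 in luteal phase replicates 1 to 5 and of 15.1, 10.2, 9.05, 15.0 and 11.6 in follicular phase replicates 1 to 5. Every luteal phase ovary was above every follicular phase ovary. The log2 fold change was 1.58 with an SE of 0.17 (limma adjusted p = 4.34e-05), a 3.00-fold difference with a 95% confidence interval from 2.32 to 3.88. The call was kept in all 20 alternative settings. With its most abundant transcript only, the log2 fold change was smaller, at 0.98 (adjusted p = 0.0120). That lies below the interval, which began at 1.21 on the log2 scale.

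NR5A1, which directs the formation of the gonads and adrenal glands as well as steroid synthesis, had an FPKM of 41.3, 34.5, 26.0, 37.8 and 44.3 in luteal phase replicates 1 to 5. In follicular phase replicates 1 to 5 it was at 35.3, 31.3, 26.0, 28.2 and 29.6. The ranges overlapped, with luteal phase replicates 2 and 3 below the highest follicular phase ovary. The log2 fold change was 0.27 (95% confidence interval -0.02 to 0.57, limma adjusted p = 0.121), which did not pass the test. With the ovaries shifted to a common median it was 0.36 (adjusted p = 0.05003), and on the TPM scale 0.37 (adjusted p = 0.0622). Neither passed. Without luteal phase replicate 3, and with no such rescaling, it was 0.39 with an adjusted p of 0.0118. That ovary also had the lowest summed FPKM of the luteal cell markers in its phase (3714 against 4905 to 5456) and of the granulosa cell markers (50.7 against 108 to 318). Of the luteal cell markers, STAR and OXT were lowest there and LHCGR and PTGFR were not, and of the granulosa cell markers all but AMH were lowest there. The part of these in the NR5A1 value was not tested.

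The ratio of NR5A2 to NR5A1 within an ovary does not depend on how the ovary was scaled. NR5A2 was at 0.997 ± 0.107 times the FPKM of NR5A1 in luteal and at 0.404 ± 0.0809 times in follicular phase ovaries (SD, n = 5 each). The ratio ran from 0.851 to 1.11 and from 0.325 to 0.531, with no overlap. On the log2 scale the phases differed by 1.31 (exact permutation test, two-sided, p = 0.00794), the smallest p that 5 ovaries against 5 allow, which was 0.0397 after Benjamini-Hochberg adjustment over the 5 ratios tested. The pair of genes was thus near parity in luteal phase ovaries, and NR5A1 was in excess in follicular phase ovaries.

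NR0B1, the repressor of NR5A1, had an FPKM of 4.74, 2.34, 4.35, 2.29 and 2.08 in luteal phase replicates 1 to 5 and of 5.07, 2.32, 8.49, 7.07 and 7.48 in follicular phase replicates 1 to 5. Of the follicular phase ovaries, 4 lay above every luteal phase ovary and replicate 2 lay among the low luteal phase values. On the log2 scale the difference was -0.88 (95% confidence interval -1.65 to -0.11, unadjusted p = 0.0285, limma adjusted p = 0.0616), so the difference did not pass the adjusted threshold. It passed without follicular phase replicate 2 (-1.19, adjusted p = 0.00507), without luteal phase replicate 1 (-1.05, adjusted p = 0.0391) and without luteal phase replicate 3 (-1.02, adjusted p = 0.0477). With phase means removed from the log2 values (phase-centred), NR0B1 and NR5A1 had a Pearson's r of -0.44 (permutation p = 0.199, adjusted 0.233 over the 14 pairs tested) and a Spearman's rho of -0.45 (permutation p = 0.231, adjusted 0.269). Leaving out the 2 ovaries farthest from the NR5A1 median gave an r of -0.23.

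Steroidogenic genes described as NR5A targets were taken as a list of 11. HSD3B1 was not analysed here, and the other 10 passed the filter. Of these, 7 were higher and 1 was lower in the luteal phase, against 15.9% and 27.8% of all genes, with a median log2 fold change of 3.14. Without luteal phase replicate 1 or follicular phase replicate 3, 2 were lower, and with the most abundant transcripts only, 6 were higher. STAR, which carries cholesterol into the mitochondrion, rose from 16.6 ± 5.58 to 2651 ± 507 FPKM (log2 fold change 7.35, limma adjusted p = 1.0e-09). CYP11A1, listed as LOC102173131, which cleaves the cholesterol side chain, rose from 87.0 ± 19.4 to 2495 ± 262 (4.87, adjusted p = 3.36e-09). SCARB1, the receptor that takes up cholesterol from high-density lipoprotein, rose by 4.01 and PRLR, the prolactin receptor, by 6.03 on the log2 scale. The member that fell was CYP17A1, listed as LOC102182663, the theca cell enzyme of androgen synthesis (-1.71, limma adjusted p = 0.00390), which was named after its value was seen. In each of these 4 genes that rose, the log2 fold change exceeded the 1.58 of NR5A2. The 2 genes of the list that were not called, CYP19A1 and INHA, had lower means in the luteal phase, with overlapping ranges. Their log2 fold changes were -1.32 and -1.04 (limma adjusted p = 0.174 and 0.149), and they were named after their values were seen.

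Within the phases, NR5A2 and CYP11A1 had a phase-centred Pearson's r of 0.70 over the 10 ovaries (permutation p = 0.0212, adjusted 0.0494). Their Spearman's rho was 0.55 (permutation p = 0.132, adjusted 0.185), and r was 0.70 without the 2 farthest ovaries. NR5A2 and STAR gave -0.04 (permutation p = 0.915) and NR5A2 and SCARB1 0.47 (permutation p = 0.194). The r of NR5A1 and NR5A2 was 0.69 (permutation p = 0.0290, adjusted 0.0507) and 0.59 without the 2 farthest ovaries.

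In whole ovaries, fewer cells of a type and less RNA per cell cannot be told apart. All 4 luteal cell markers that were tested and all 5 endothelial markers were higher in the luteal phase. The summed FPKM of the luteal cell markers was 3714 to 5456 in luteal and 53.9 to 67.0 in follicular phase ovaries, and that of the endothelial markers was 184 to 236 and 79.7 to 92.6. Granulosa cell markers were lower in the luteal phase in 4 of 6 genes, at 50.7 to 318 against 155 to 613, and theca cell markers in 2 of 2, at 17.1 to 69.2 against 139 to 202. All 5 smooth muscle markers were lower, at 539 to 967 against 1176 to 1486, and so were 4 of 5 oocyte markers, at 6.99 to 16.0 against 13.7 to 32.2. Among 6 stroma markers 2 were higher and 1 was lower, and 1 of 4 surface epithelium markers was higher and 1 was lower, at a sum of 13.2 to 29.4 against 10.9 to 44.0. Of 5 immune cell markers, 0 were called by limma and 1 had an unadjusted p under 0.05, with a sum of 57.6 to 72.6 against 38.9 to 73.2. The red blood cell markers ALAS2 and SLC4A1 were at or near 0 in every ovary. The part of these cell types in the receptor values was not tested.

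**Figure D2:**
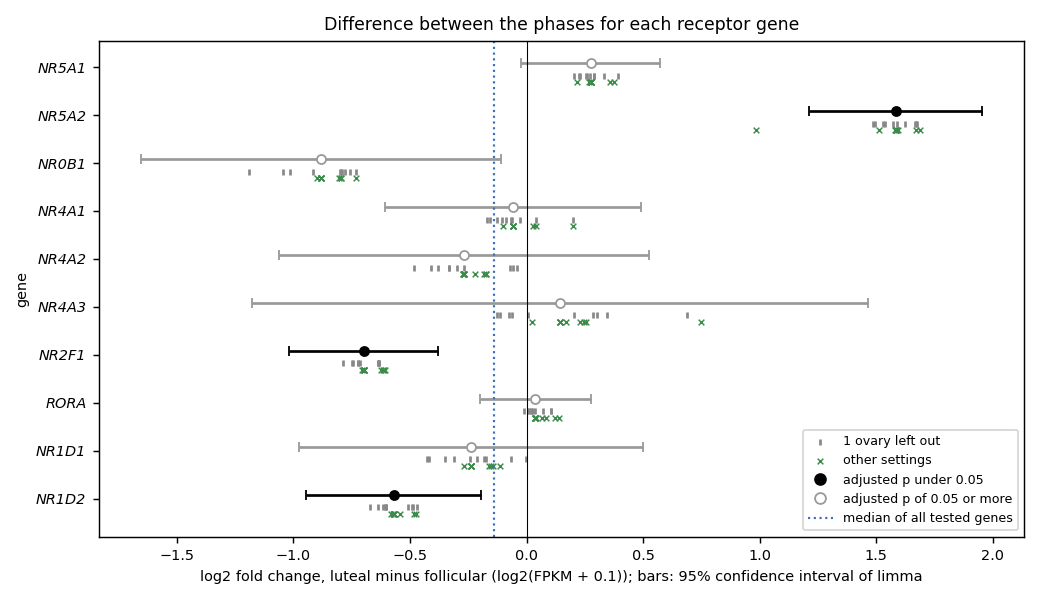
Log2 fold change of each receptor gene, luteal minus follicular, with the 95% confidence interval of limma, and the values obtained with 1 ovary left out or under another setting. NR5A2 lies to the right, NR0B1, NR2F1 and NR1D2 lie to the left of the median of all tested genes, and the intervals of NR5A1, NR4A1, NR4A2, NR4A3, RORA and NR1D1 span 0. The interval of NR0B1 lies below 0, and its adjusted p did not pass.

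NR5A2 was listed with 3 transcripts. XM_018060817.1 was above 0 in every ovary, at 23.8, 17.1, 14.9, 16.5 and 34.1 in luteal phase replicates 1 to 5 and at 11.02, 10.1, 9.03, 14.8 and 7.37 in follicular phase replicates 1 to 5. XM_018060818.1 was at 22.2, 18.1, 13.004, 15.7 and 6.95 in the luteal phase, while in the follicular phase it was at 4.07 and 4.20 in replicates 1 and 5 and listed at 0 in replicates 2, 3 and 4. The third transcript did not exceed 0.159 in any ovary. XM_018060817.1 held 57.6 ± 14.4% of the summed NR5A2 FPKM in luteal and 87.0 ± 17.4% in follicular phase ovaries. This difference of shares had an exact permutation p of 0.0238 (two-sided), and 0.0595 after adjustment over the 5 genes with several transcripts, and it did not pass. Luteal phase replicate 5 stood apart with a share of 83.1%, against 48.6 to 53.4% in the other luteal phase ovaries.

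Tested as single transcripts over 32842 transcripts, 2 of the 21 receptor transcripts that passed the filter were called higher in the luteal phase and 1 was called lower, where 7.47% and 9.82% of all transcripts were. In all, the receptor genes had 26 transcripts. The calls were XM_018060817.1 (log2 fold change 0.98 with an SE of 0.25, limma adjusted p = 0.0218) and XM_018060818.1 (adjusted p = 0.0174) of NR5A2, and the single transcript of NR2F1 (XM_018050041.1, adjusted p = 0.0122). No fold change is given for XM_018060818.1, since its size follows the pseudocount where ovaries are listed at 0. A listed 0 can be a failed assignment of reads between transcripts of a gene, so the sum over the gene is the firmer value. XM_018060817.1 lost its call without follicular phase replicate 3 (0.94, adjusted p = 0.0505).

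**Figure D3:**
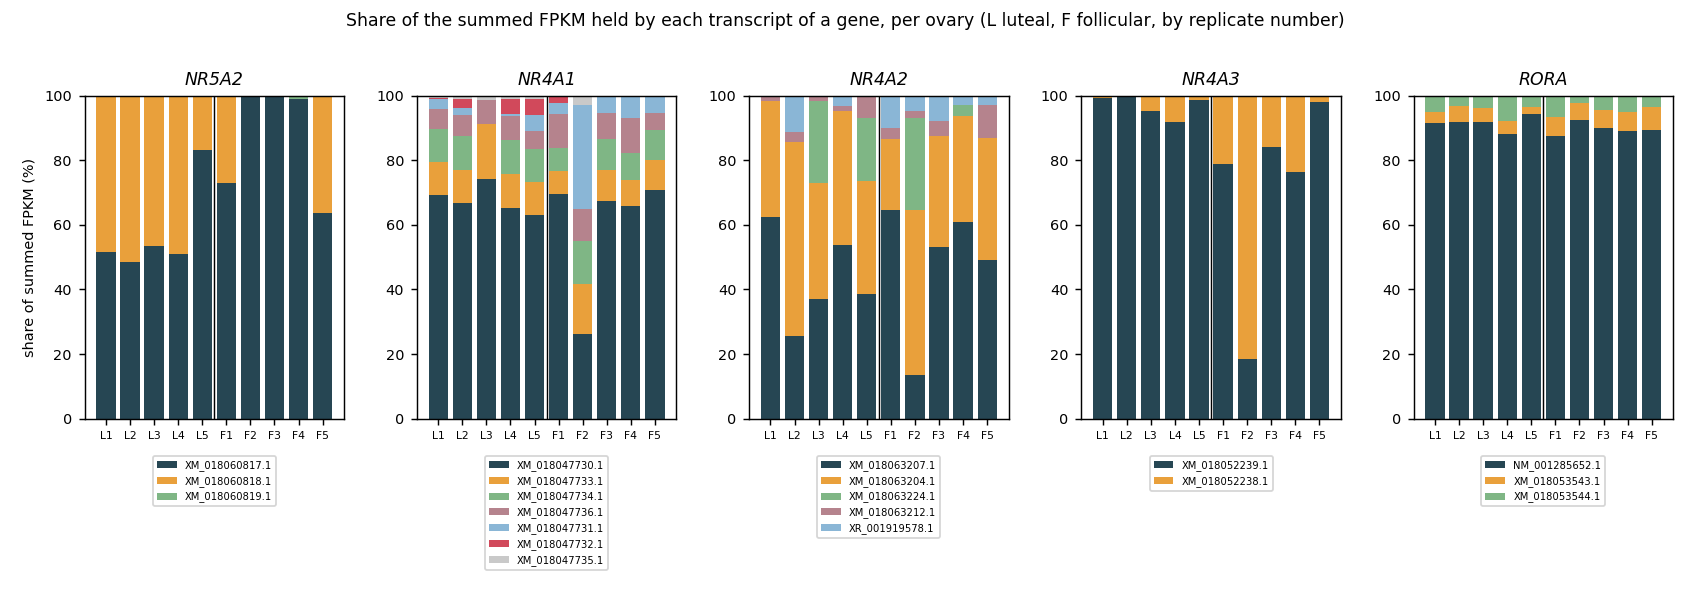
Share of the summed FPKM (%) held by each transcript of the 5 receptor genes with several transcripts, for each luteal phase (L1 to L5) and follicular phase (F1 to F5) ovary. In NR5A2 the transcript XM_018060818.1 holds a large part in the luteal phase and is listed at 0 in follicular phase replicates 2, 3 and 4, and follicular phase replicate 2 departs from the other ovaries in NR4A1 and NR4A3.

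NR4A1 (Nur77), the most abundant NR4A gene, had an FPKM of 33.4, 25.1, 40.1, 30.3 and 37.5 in luteal phase replicates 1 to 5 and of 24.8, 33.3, 31.4, 25.7 and 69.6 in follicular phase replicates 1 to 5. Only follicular phase replicate 5 lay above the luteal phase range. The fold change was -0.06 on the log2 scale (95% confidence interval -0.61 to 0.49, limma adjusted p = 0.867), and it was 0.20 without that ovary (adjusted p = 0.289). Shifting the ovaries to a common median, or the TPM scale, also made it positive, so that no direction can be given. Without follicular phase replicate 2 it was -0.07.

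NR4A2 (Nurr1) was lower, at 3.75, 1.47, 2.73, 3.29 and 2.97 in luteal phase replicates 1 to 5 and at 2.19, 5.74, 2.73, 1.78 and 6.23 in follicular phase replicates 1 to 5. Follicular phase replicates 2 and 5 were the highest ovaries and the other ovaries overlapped between the phases (log2 fold change -0.27, 95% confidence interval -1.06 to 0.53, limma adjusted p = 0.570). Without replicate 5 it was -0.04 and without replicate 2 it was -0.07.

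NR4A3 (NOR1) was at 3.87, 2.76, 1.02, 1.23 and 1.56 in luteal phase replicates 1 to 5 and at 0.727, 7.81, 0.860, 0.888 and 2.62 in follicular phase replicates 1 to 5. The follicular phase held the 3 lowest ovaries as well as the highest. NR4A3 differed by 0.14 on the log2 scale (95% confidence interval -1.18 to 1.46, limma adjusted p = 0.860), by 0.69 without follicular phase replicate 2 (adjusted p = 0.224) and by 0.30 without replicate 5. The SD of NR4A3 was 117% of its mean in the follicular phase, the largest spread among the 10 receptor genes, and 57.7% in the luteal phase. For NR4A1 the interval, 0.657 to 1.41 as a luteal to follicular fold, did not reach a 2-fold difference in either direction, while those of NR4A2 and NR4A3 reached past it.

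The NR4A3 value of follicular phase replicate 2 came mostly from a transcript that was low elsewhere. XM_018052238.1 of NR4A3 had an FPKM of 6.36 in that ovary and at most 0.209 in the other 9 ovaries. XM_018047731.1 of NR4A1 was at 10.8 in that ovary, at 3.75 in follicular phase replicate 5 and at most at 1.88 in the others. The transcript of NR4A1 that was most abundant on average, XM_018047730.1, held 26.2% of the NR4A1 FPKM in follicular phase replicate 2 and 63.2 to 74.1% in the other 9 ovaries. For NR4A3, the share of XM_018052239.1 was 18.6% in that ovary, 76.5 to 97.9% in the other follicular phase ovaries and 91.8 to 99.6% in the luteal phase. The summed FPKM of the surface epithelium markers was 44.0 in that ovary and 10.9 to 14.1 in the other follicular phase ovaries. The keratin genes KRT8 and KRT18, named after their values were seen, carried this sum, and the other markers, KRT19 and MSLN, lay within the range of the other follicular phase ovaries. The part of surface epithelium in the NR4A values was not tested. The shares of the phases differed for NR4A3 with an exact permutation p of 0.0238 (adjusted 0.0595, not passed), and for NR4A1 and NR4A2 with 0.635 and 0.675.

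The NR4A receptors belong to the immediate early genes, which respond to stimulation without new protein synthesis. Of 15 other immediate early genes, all tested, 0 were called higher and 5 lower in the luteal phase by limma, also 0 and 5 at an unadjusted p under 0.05, against 15.9% and 27.8% of all genes, with a median log2 fold change of -0.45. With the ovaries at a common median, on the TPM scale or without luteal phase replicate 3 or 4, 3 were called lower, and without follicular phase replicate 5, 2 were called higher. FOSB, a subunit of the AP-1 transcription factor, was at 2.47 ± 0.969 FPKM in luteal and 12.9 ± 13.4 in follicular phase ovaries (log2 fold change -1.94, limma adjusted p = 0.00984), with -1.45 when follicular phase replicate 5 was left out and an adjusted p of 0.0707 with its most abundant transcript only. JUN, another AP-1 subunit, was at 78.4 ± 11.9 and 170 ± 92.1 (adjusted p = 0.00941), with -0.72 when that ovary was left out, and the growth regulator MYC at 12.8 ± 2.76 and 21.9 ± 3.20 (-0.79, adjusted p = 0.00133). JUND (-0.45, adjusted p = 0.0245) had an adjusted p of 0.0609 at a common median and 0.0716 on the TPM scale. The fifth call was FOS (-0.88, adjusted p = 0.0428), named after its value was seen. It lost its call in 14 of 20 alternative settings, among them the common median, the TPM scale and leaving out any luteal phase ovary or follicular phase replicate 2, 3 or 4, with adjusted p-values of up to 0.0867. The FOS log2 fold change was -0.54 when follicular phase replicate 5 was left out (adjusted p = 0.0198).

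Follicular phase replicate 5 was the highest ovary for many of these genes, as it was for NR4A1 and NR4A2. The summed FPKM of the list was 1870 in that ovary, 584 to 941 in the other follicular phase ovaries and 548 to 721 in the luteal phase. FOS was at 646 in that ovary and between 142 and 240 in the other follicular phase ovaries. The summed FPKM of the immune cell markers was also highest there, at 73.2 against 38.9 to 58.0 in the other follicular phase ovaries. Of the 5 markers, PTPRC, CD68 and CD3E were above all other follicular phase ovaries there, and CD14 and AIF1 were not (all named after their values were seen). Luteal phase replicate 1 had an immune cell marker sum of 72.6 and an immediate early gene sum of 721. The part of immune cells in the NR4A and immediate early gene values was not tested. Phase-centred NR4A1 and NR4A2 had a Pearson's r of 0.76 over the 10 ovaries (permutation p = 0.00997, adjusted 0.0349) and a rho of 0.76 (permutation p = 0.0197, adjusted 0.0688), and r stayed at 0.66 without the 2 farthest ovaries. NR4A1 and EGR1, a zinc finger immediate early gene, gave an r of 0.88 (permutation p = 0.0211, adjusted 0.0494), a rho of 0.72 (adjusted permutation p = 0.0914) and an r of 0.68 without the 2 farthest ovaries. The relation of NR4A1 and FOS (r = 0.88, permutation p = 0.0262, adjusted 0.0507, with a rho of 0.71, permutation p = 0.0357, adjusted 0.0914) fell to 0.40 without follicular phase replicates 1 and 5 and rests on them. NR4A3 gave an r of 0.27 with NR4A1 (permutation p = 0.594) and 0.61 with NR4A2 (permutation p = 0.117).

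NR2F1 had an FPKM of 4.33, 4.36, 6.71, 5.48 and 5.63 in luteal phase replicates 1 to 5 and of 7.96, 7.39, 10.2, 7.54 and 10.1 in follicular phase replicates 1 to 5. Every follicular phase ovary was above every luteal phase ovary. This was a log2 difference of -0.70 with an SE of 0.15 (limma adjusted p = 0.00299), a level 1.62 times as high in the follicular phase, and the call was kept in all 20 alternative settings. NR2F2 (COUP-TFII), its close paralog and a regulator of stroma and vessels, was at 15.9 ± 3.13 and 24.2 ± 2.79 (-0.61, adjusted p = 0.00292). NR2F1 was at 0.334 ± 0.0399 times the FPKM of NR2F2 in luteal and at 0.357 ± 0.0413 times in follicular phase ovaries, a log2 difference of -0.09 with an exact permutation p of 0.444. The ratio of the paralogs thus differed between the phases by less than the spread between ovaries.

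Of 15 other orphan receptors, 9 passed the filter. In the luteal phase 7 of these were lower and 1 was higher, against 27.8% and 15.9% of all genes, with a median log2 fold change of -0.68. ESRRG, an estrogen-related receptor without a known hormone, was at 0.154 ± 0.0436 FPKM in luteal and 0.606 ± 0.262 in follicular phase ovaries (-1.41, limma adjusted p = 0.00220). NR0B2 (SHP), which like NR0B1 lacks a DNA-binding domain and represses NR5A2, was at 0.298 ± 0.134 and 0.769 ± 0.166 (-1.17, adjusted p = 0.00321). NR2C2 (TR4) and NR2F6 fell by 0.76 and 0.68 on the log2 scale, and NR2C2 did not pass with its most abundant transcript only (adjusted p = 0.0708). The receptor that rose was ESRRA, a regulator of mitochondrial genes, from 9.62 ± 0.737 to 12.8 ± 1.22 (0.40, adjusted p = 0.00365), named after its value was seen.

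Among 19 coregulators and partner factors, all tested, 7 were lower and 1 was higher in the luteal phase, against 27.8% and 15.9% of all genes. FOXL2 and GATA4, transcription factors of granulosa cells, changed by -0.76 and -0.72 on the log2 scale (limma adjusted p = 0.00232 and 0.00110). NRIP1, a corepressor needed for ovulation, changed by -0.61 (adjusted p = 0.000336), and RXRB, a heterodimer partner of NR4A1 and NR4A2 among others, by -0.39 (adjusted p = 0.00121, or 0.128 with its most abundant transcript only). HDAC3, the deacetylase that the NR1D receptors recruit with NCOR1, was the factor that rose (0.29, adjusted p = 0.00686), and it was named after its value was seen. On the TPM scale 4 of these factors were lower, and 11 were without follicular phase replicate 2.

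RORA varied little between ovaries, with an SD of 10.1% of the mean in the luteal phase and 13.9% in follicular phase ovaries. It was at 9.58, 11.9, 12.5, 11.6 and 12.2 FPKM in luteal phase replicates 1 to 5 and at 9.77, 10.3, 12.3, 10.6 and 13.5 in follicular phase replicates 1 to 5. The ranges overlapped in nearly all ovaries. Its log2 fold change was 0.04, with a 95% confidence interval from -0.20 to 0.28 (limma adjusted p = 0.795). NM_001285652.1 held 91.6 ± 2.22% of the RORA FPKM in luteal and 89.7 ± 1.77% in follicular phase ovaries (difference of shares with an exact permutation p of 0.167).

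NR1D1 was at 0.660, 0.374, 1.43, 0.820 and 1.14 FPKM in luteal phase replicates 1 to 5 and at 1.05, 0.552, 1.16, 0.778 and 1.63 in follicular phase replicates 1 to 5. The ranges overlapped in most ovaries (log2 fold change -0.24, 95% confidence interval -0.98 to 0.50, limma adjusted p = 0.588). NR1D2 was far more abundant, at 12.6, 12.1, 21.3, 17.5 and 18.2 in luteal phase replicates 1 to 5 and at 21.4, 19.6, 28.1, 21.8 and 29.4 in follicular phase replicates 1 to 5. Here luteal phase replicate 3, the highest of its phase, reached into the follicular phase range and the other luteal phase ovaries did not. NR1D2 was lower in the luteal phase with a log2 fold change of -0.57 and an SE of 0.17 (limma adjusted p = 0.0197). The call was kept with each ovary left out and was lost on the TPM scale (-0.47, adjusted p = 0.0690), and as a single transcript (XM_018041999.1) it had an adjusted p of 0.0545.

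NR1D2 was at 20.7 ± 6.95 times the FPKM of NR1D1 in luteal and at 25.2 ± 6.91 times in follicular phase ovaries, a difference that did not pass (exact permutation p = 0.175, adjusted 0.437). Across the ovaries of a phase the pair rose and fell together. Phase-centred r was 0.91 (permutation p = 0.00124, adjusted 0.00868) and rho 0.90 (permutation p = 0.00324, adjusted 0.0227), with an r of 0.88 without the 2 farthest ovaries.

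NR1D1 also followed DBP, a clock output gene, with an r of 0.91 (permutation p = 0.000510, adjusted 0.00714) and a rho of 0.90 (permutation p = 0.00138, adjusted 0.0193). It was 0.81 when the 2 farthest ovaries were left out. With ARNTL (BMAL1), a core clock activator that NR1D receptors repress, r was positive as well, at 0.85 (permutation p = 0.00549, adjusted 0.0256), with a rho of 0.84 (adjusted permutation p = 0.0343) and an r of 0.68 without the 2 farthest ovaries. RORA and NR1D1 gave an r of 0.56 (permutation p = 0.111, adjusted 0.165). Luteal phase replicate 2 and follicular phase replicate 2 were the lowest ovaries of their phase for NR1D1, NR1D2, DBP and ARNTL. Follicular phase replicate 2 was instead the highest of its phase for PER2, CRY1 and NFIL3, clock genes named after their values were seen. NR1D1 had a higher r with genes outside the clock list, such as NGFR (0.99), which were picked as the highest of many. The hour at which each ovary was collected is not given in the sources used here.

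**Figure D4:**
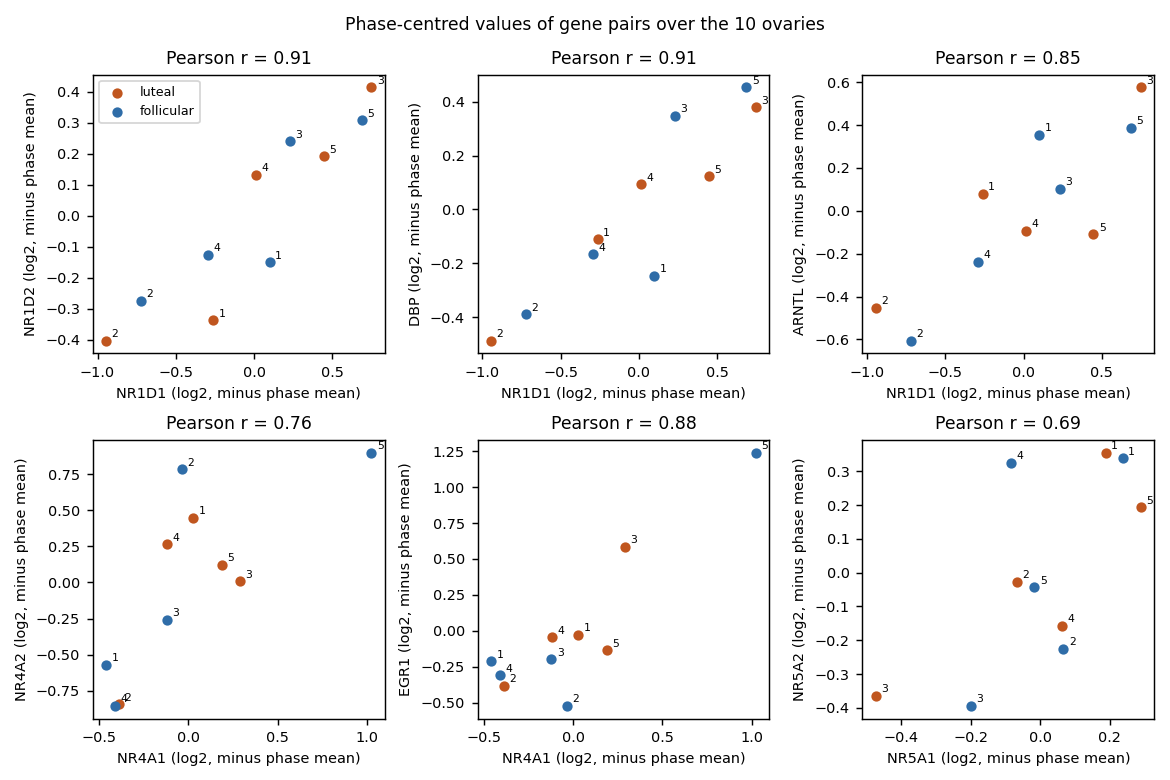
Log2(FPKM + 0.1) of gene pairs after subtraction of the phase mean, 1 point per ovary numbered by replicate, with Pearson's r. NR1D1 rises with NR1D2, DBP and ARNTL through the ovaries of both phases, while the NR4A1 panels have follicular phase replicate 5 far from the other ovaries.

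Of 18 circadian clock genes, 17 were tested (CSNK1E was not analysed here), with 6 lower and 1 higher in the luteal phase, against 27.8% and 15.9% of all genes, and a median log2 fold change of -0.31. The higher gene was ARNTL2, a paralog of ARNTL, at 1.73 ± 0.371 FPKM in luteal and 0.516 ± 0.232 in follicular phase ovaries (1.62, limma adjusted p = 0.000406). The repressors PER2 and CIART changed by -0.78 and -0.77 (adjusted p = 0.00748 and 0.00174) and NPAS2, a partner of ARNTL, by -0.75 (adjusted p = 0.00794). DBP was at 7.09 ± 1.53 and 11.5 ± 3.09 (-0.68, adjusted p = 0.0159, or 0.0509 on the TPM scale) and ARNTL at 4.21 ± 1.19 and 3.72 ± 1.03 (0.18, adjusted p = 0.539).

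**Figure D5:**
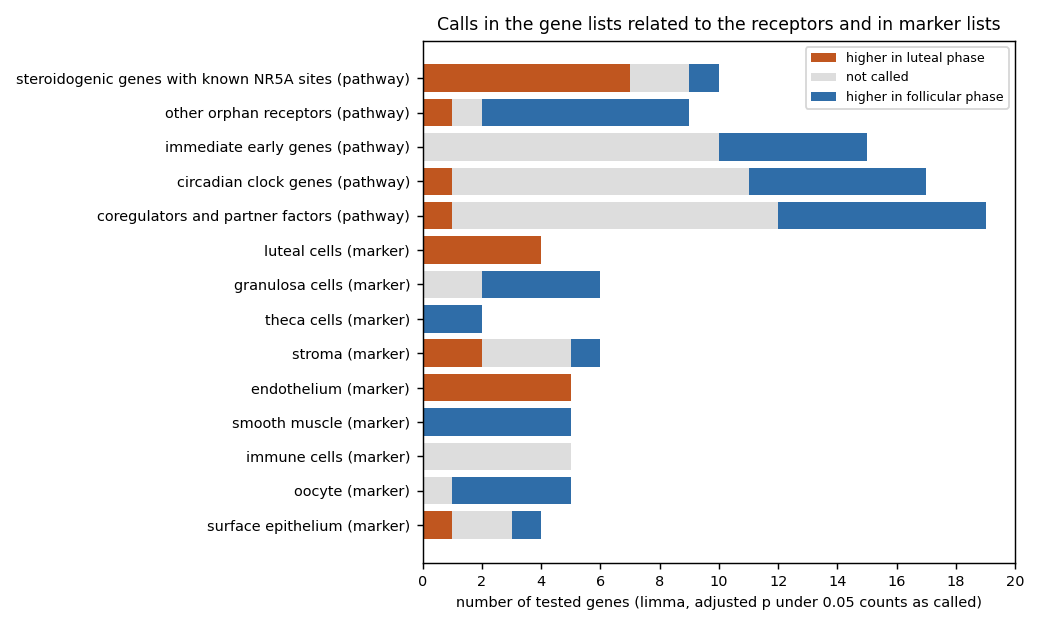
Number of tested genes called higher in the luteal phase, called higher in the follicular phase or not called, for the 5 gene lists tied to the receptors and for the marker lists. The steroidogenic, luteal cell and endothelial lists lean to the luteal phase, and the other orphan receptor, theca cell and smooth muscle lists to the follicular phase.

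For 5 receptor genes, the most similar of 12581 genes with a mean FPKM of at least 1 were taken by Pearson's r of the phase-centred values over the 10 ovaries. These genes were picked as the highest of many, and the values are a description. NR5A1 was nearest to FASN (r = 0.95, fatty acid synthase), CDC27 (0.94) and HSD17B1 (0.94, the granulosa cell enzyme that makes estradiol). NR5A2 was nearest to PARPBP (0.96), CPPED1 (0.95) and ENGASE (0.95). NR4A1 was nearest to PPP1R15A (0.97, a stress-induced phosphatase subunit), IER2 (0.94, an immediate early gene) and CFAP97 (0.93). NR1D1 was nearest to NGFR (0.99), TMEM26 (0.98) and TCN2 (0.98), and RORA to SP3 (0.98), IK (0.95) and TMEM53 (0.95).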

How the data were processed

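Ribosomal RNA was removed from total RNA of each of the 10 ovaries, and directional, paired-end libraries were sequenced. The deposited values are FPKM per transcript and ovary, which the authors computed with Cuffdiff after HISAT2 alignment and StringTie assembly, without pooling. The genome build, and whether strand was used in counting, are not given in the sources used here. Shared or overlapping reads between transcripts of a gene were divided by that software, so isoform values are less certain than sums. Read counts were not used here. The study gives its reads only as a total over the libraries, so the depth of each ovary is unknown.

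FPKM of protein coding rows were summed by symbol, and CYP11A1 was found as LOC102173131 through RefSeq synonyms (assembly ARS1.2). limma 3.58.1 in R 4.3.3 (lmFit, eBayes with trend) was run on log2(FPKM + 0.1). Exact permutation used all 252 divisions of the ovaries, and pair correlations 100000 permutations within the phases (Python 3.11.15, numpy 2.4.6, scipy 1.17.1). On simulated data with 200 of 15359 genes changed, 70.0% of 2-fold and 94.0% of 4-fold changes were recovered, and 1.80% of the calls were false. With 200 of 32842 transcripts changed, 21.0% and 66.0% were recovered, and 6.45% of the calls were false. Each was a single run on phase-centred values of these ovaries, mixed across the phases. Far more genes were called in the data (6711), so these rates need not hold there. Members, gene lists and pairs were chosen with earlier results of these data known. Genes outside the 10 are named where they belong to a fixed pair or ratio, are the up to 4 largest non-overlapping calls of a list, or are the 3 most similar to a receptor, and other named genes were chosen after their values were seen. Alternatives were other pseudocounts, filters, scalings, eBayes without trend, a replicate block, the most abundant transcript and leaving out each ovary.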

Additional observations from a re-analysis of the deposited data

Results flagged for a closer look

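The highest or lowest ovary was compared with the other 4 of its phase by Dixon's gap ratio for 112 groups of values. Of these groups, 13 passed its 95% critical value through 4 different ovaries. That value assumes independent, normally distributed values, which was not checked here, so the count of 13 is not compared with chance. Several of the 13 overlap, since a gene, its transcript, its share and its ratio rest on the same values. Follicular phase replicate 2 accounted for 8 of the 13, and its surface epithelium markers were at a summed FPKM of 44.0 against 10.9 to 14.1 in the other follicular phase ovaries, through KRT8 and KRT18 and not KRT19 or MSLN. Its NR4A3 value of 7.81 FPKM stood above the next follicular phase ovary at 2.62, and its XM_018052238.1 of NR4A3, at 6.36, above 0.209. XM_018047735.1 of NR4A1 was at 0.928 in that ovary and listed at 0 in the other 4, a case in which any value above 0 passes. The log2 ratio of NR4A2 to NR4A1 was -2.52 in that ovary, with the next at -3.44, and that of NR4A3 to NR4A1 was -2.08, with the next at -4.68. The most abundant transcript held 26.2% of NR4A1 and 18.6% of NR4A3 there, and MYC was at 27.6 FPKM with the next ovary at 20.8. Follicular phase replicate 5 was apart for NR4A1 at 69.6 FPKM (next 33.3), FOSB at 36.6 (next 9.23) and JUN at 332.0 (next 142). Luteal phase replicate 5 was apart in the share of XM_018060817.1 in NR5A2, at 83.1%, and luteal phase replicate 4 in XM_018053544.1 of RORA, at 0.921 FPKM with the next ovary at 0.485. These values are given without an explanation, and none was tested.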

How the results depend on the processing

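Over 20 alternatives for each of the 10 receptor genes, 183 of 200 values kept direction and side of the threshold. NR5A2 and NR2F1 were called in every one. The called receptor genes numbered 1 to 2 higher and 2 to 3 lower with 1 ovary left out, and the called receptor transcripts 1 to 3 and 1 to 3. With the replicate block 2 receptor genes and 1 receptor transcript were higher and 2 receptor transcripts were lower in the luteal phase, and NR5A1 (0.27, adjusted p = 0.0441) and NR0B1 (-0.88, adjusted p = 0.0414) passed. In that setting 3 genes of the steroidogenic list were lower in the luteal phase. Deviations of equally numbered ovaries correlated at 0.0258 to 0.199, and 2 of 5 luteal phase ovaries correlated best with their own number, so the numbers were not taken as pairs. On the TPM scale 1 receptor gene was lower, with NR1D2 at -0.47 (adjusted p = 0.0690). With a minimum FPKM of 0.5, 2 receptor transcripts were lower. NR4A1 turned to 0.028 with ovaries at a common median, 0.042 on the TPM scale and 0.20 with its most abundant transcript only, and XM_018063204.1 of NR4A2 to 0.041, 0.048 and 0.055 after the common median, quantile normalization and TPM. With 1 ovary left out, log2 fold changes ran from 0.20 to 0.39 for NR5A1, -1.19 to -0.73 for NR0B1, -0.17 to 0.20 for NR4A1, -0.13 to 0.69 for NR4A3 and -0.012 to 0.11 for RORA. They ran from -0.084 to 0.54 for XM_018047730.1, -0.020 to 0.43 for XM_018047733.1 and -1.30 to 0.020 for XM_018047734.1 of NR4A1. They ran from -0.51 to 0.074 for XM_018063207.1 and -0.33 to 0.27 for XM_018063204.1 of NR4A2 and -0.040 to 0.25 for XM_018053544.1 of RORA. The difference in the NR4A3 to NR4A1 ratio ran from -0.049 to 0.75 and that in the main NR4A1 share from -0.77 to 10.4 percentage points. ARNTL turned to -0.031 with its most abundant transcript only. The cause of these changes was not tested. Depth is given only as a total over the libraries, so the counting error of a value in an ovary is unknown, and isoforms listed at 0 are the least certain values.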

Other observations

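Genes beside the receptor genes were looked up by gene number in RefSeq gene positions for assembly ARS1.2, which served only to tell which genes lie within 100 kb of each other. All 10 receptor genes had a position there. Of 65 neighbouring transcripts in the table, 48 were tested by limma over all transcripts, with 1 higher and 8 lower in the luteal phase, where 7.47% and 9.82% of all transcripts were. The higher one belonged to ANXA2, a calcium-dependent membrane-binding protein near RORA, which was at 473 ± 59.6 FPKM in luteal and 223 ± 25.1 in follicular phase ovaries (SD, n = 5 each; log2 fold change 1.08, limma adjusted p = 0.000125), while RORA did not pass the test. Next to NR1D1 lies THRA, the thyroid hormone receptor alpha gene. Its transcript was at 5.16 ± 0.896 and 10.2 ± 1.79 FPKM (-0.97, adjusted p = 0.00260), and NR1D1 had a log2 fold change of -0.24 that did not pass.

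An annotated lncRNA within this distance was found for 3 receptor genes, and none passed the adjusted threshold. XR_001917592.1, which overlaps NR0B1, was at 0.413 ± 0.324 FPKM in luteal and 1.01 ± 0.341 in follicular phase ovaries (log2 fold change -1.27, limma adjusted p = 0.0558). With 1 ovary left out its adjusted p ran from 0.0140 (without luteal phase replicate 3) to 0.120. XR_001918034.1 near NR4A1 was at 0.687 ± 0.250 and 1.26 ± 0.376 (-0.79, adjusted p = 0.110), and XR_001918456.1 near NR4A3 at 0.678 ± 0.299 and 1.45 ± 0.647 (-0.99, adjusted p = 0.119). With 1 ovary left out, the adjusted p of XR_001918034.1 ran from 0.0436 (without follicular phase replicate 3) to 0.208. That of XR_001918456.1 ran from 0.0523 to 0.233. Whether reads of the overlapping pair were kept apart by strand is not stated.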
